A study of Homo sapiens with 31 samples.

Results

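Binding of the corepressor CTBP2 was compared between 2 leukemia cell lines, MOLM1 and MUTZ3, by chromatin immunoprecipitation and sequencing (ChIP-seq), in which DNA bound by a protein is recovered with an antibody and bound regions stand out as peaks over unprecipitated input. One peak list stood on each side, and the strongest 15000 peaks of each, by the authors' −log10 p at the summit, were taken from 64569 peaks of MOLM1 and 16836 peaks of MUTZ3. These were 2 of the 13 peak lists of the study used here, and its 31 samples hold further libraries and inputs. With 1 library a side there is no replicate error, so all values are descriptions without a test, and the 95% Wilson intervals given with shares cover counting error only.

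MUTZ3 is labelled an acute myelomonocytic leukemia line and was used unmodified and untreated. MOLM1 is labelled a chronic myeloid leukemia in blast crisis. It carried a doxycycline-inducible short hairpin against EVI1 that had not been induced, and it was 1 clone derived from the line. Both lines are 3q26-rearranged, and the same CTBP2 antibody was used in both. The lines were grown in different media, with conditioned medium for MUTZ3 only. The MUTZ3 CTBP2 library is labelled with a single crosslink and the MOLM1 library with a disuccinimidyl glutarate (DSG) double crosslink, although the study's own table gives a single crosslink for MOLM1. Within this pair, cell line, crosslink, medium and library therefore cannot be told apart. Further MUTZ3 CTBP2 lists, all labelled DSG, were set beside the pair: 2 from cells with a retroviral 4xPLASS control construct, and 2 from cells that carry an inducible 4xPLDLS construct and were left untreated for 72 hours. Peak lists carry no read numbers, so depth is unknown, and the identity of the lines could not be checked against marker expression.

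CTBP2 has no sequence preference of its own. It is carried to DNA by transcription factors with short PLDLS-like peptides and brings histone deacetylases, demethylases and methyltransferases that silence nearby genes. EVI1, the zinc finger protein made from the MECOM locus, is such a partner and is activated by 3q26 rearrangement in acute myeloid leukemia, and ZEB1 and ZEB2, which bind E-box letters of the CACCTG type, are others.

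The strongest sites bound in both lines are shown first because several of them consist of repeated copies of CACCTG, or of its reverse complement CAGGTG, in the hg19 reference. In the next 4 windows of 101 bases around the MOLM1 summit, on the plus strand, these letters are in capitals.

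GAS8 intron, chr16:90098481-90098581: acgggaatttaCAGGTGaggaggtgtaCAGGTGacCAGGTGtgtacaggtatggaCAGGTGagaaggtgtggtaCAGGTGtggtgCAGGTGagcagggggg
Intergenic, nearest start TTLL2, chr6:167806585-167806685: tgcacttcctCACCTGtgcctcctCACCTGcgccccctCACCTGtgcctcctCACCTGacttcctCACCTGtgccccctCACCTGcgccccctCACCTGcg
DOCK6 intron, chr19:11320595-11320695: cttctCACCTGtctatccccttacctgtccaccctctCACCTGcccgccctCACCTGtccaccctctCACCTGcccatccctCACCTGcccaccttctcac
ZBTB46 intron, chr20:62446963-62447063: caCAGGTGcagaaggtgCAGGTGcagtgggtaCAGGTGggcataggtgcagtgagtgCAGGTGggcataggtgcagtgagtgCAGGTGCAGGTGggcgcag

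These 4 windows hold 6, 7, 5 and 6 copies. The 2 following windows lie at shared sites beside regulators of myeloid and erythroid fate, in the CEBPA region and downstream of GFI1B, and hold no CACCTG. Here capitals mark the letters of AP-1 (TGANTCA), of RUNX factors (TGTGGT), of ETS factors (AGGAAG) and those read by GATA factors, which are AGATAA, on either strand.

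CEBPA region, chr19:33751721-33751821: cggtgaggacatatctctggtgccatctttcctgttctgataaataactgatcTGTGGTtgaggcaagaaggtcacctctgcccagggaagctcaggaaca
GFI1B downstream element, chr9:135878584-135878684: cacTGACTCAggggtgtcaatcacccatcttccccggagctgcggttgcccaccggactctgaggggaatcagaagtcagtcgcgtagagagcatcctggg

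In windows of sites bound in MOLM1 and in no MUTZ3 list, capitals mark TGANTCA, since the AP-1 letters were most frequent in that class among the classes compared, and AGGAAG and AGATAA. The first is the strongest such site, the second an ANKH intron with a pair of AP-1 matches. The last is the strongest such site within 100 kb of GATA2, and its nearest start was RPN1.

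Intergenic, nearest start POU3F3, chr2:105258408-105258508: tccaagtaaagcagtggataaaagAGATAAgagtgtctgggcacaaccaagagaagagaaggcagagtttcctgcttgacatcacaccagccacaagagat
ANKH intron, chr5:14809893-14809993: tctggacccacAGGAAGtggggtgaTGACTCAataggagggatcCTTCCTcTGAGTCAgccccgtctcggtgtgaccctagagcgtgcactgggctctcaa
GATA2 upstream region, chr3:128311030-128311130: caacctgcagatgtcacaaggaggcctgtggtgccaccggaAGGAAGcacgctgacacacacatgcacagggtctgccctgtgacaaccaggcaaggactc

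The windows of sites bound in MUTZ3 and absent from MOLM1 show AGGAAG, or CTTCCT on the other strand, in capitals, and the latter holds several copies.

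FABP6 intron, chr5:159624871-159624971: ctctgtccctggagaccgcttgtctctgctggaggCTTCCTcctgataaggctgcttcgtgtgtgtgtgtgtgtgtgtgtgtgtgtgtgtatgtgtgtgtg
Intergenic, nearest start MRGBP, chr20:61408490-61408590: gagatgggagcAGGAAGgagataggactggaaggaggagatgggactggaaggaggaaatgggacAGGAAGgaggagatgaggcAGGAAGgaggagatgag

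Of the strongest 15000 MOLM1 peaks, 5828 (38.9%, interval 38.1 to 39.6) overlapped one of the strongest 15000 MUTZ3 peaks by at least 1 bp. Seen from MUTZ3, 5924 peaks (39.5%, 38.7 to 40.3) overlapped one of MOLM1. A further 4859 MUTZ3 peaks (32.4%) met only a weaker peak of the longer MOLM1 list, against 341 MOLM1 peaks (2.27%) that met only a weaker peak of the shorter MUTZ3 list. The values at the boundary belong to each list's own scale, which depth can move: the MOLM1 peaks at ranks 15000 and 15001 both had a −log10 p of 26.8 and a fold enrichment of 9.34, and the MUTZ3 peaks at these ranks both had 6.12 and 3.599.

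No peak of the unmodified MUTZ3 list overlapped 8831 MOLM1 peaks (58.9%). Of these, 5877 (39.2% of the 15000) were present in at least 1 of the other MUTZ3 CTBP2 lists, which left 2954 (19.7%, 19.1 to 20.3) in none of the 5 MUTZ3 lists. These 2954 are called MOLM1-only below. In the other direction, 4217 MUTZ3 peaks (28.1%) had no overlap in the whole MOLM1 list, and 2684 of them (17.9%, 17.3 to 18.5) were present in both inducible untreated MUTZ3 lists. These 2684 are called MUTZ3-only. The remaining 1533 (10.2%) were missing from 1 or both of those DSG lists. Most of the MOLM1 peaks that the paired MUTZ3 list lacked were thus found in MUTZ3 when another of its libraries was read.

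Strong peaks were shared more often than weak ones in both lines. Of the 100 strongest peaks, 94 in MOLM1 and 91 in MUTZ3 were shared. In 5 groups of 3000 peaks from strongest to weakest, the shared percentage in MOLM1 was 64.2, 44.1, 33.3, 28.2 and 24.4. In MUTZ3 it was 64.4, 47.4, 35.5, 27.2 and 22.9. The MOLM1-only share rose over the same groups from 8.80% to 28.6%, and the MUTZ3-only share from 11.3% to 24.3%. Among the 100 strongest peaks, 1 was MOLM1-only and 5 were MUTZ3-only. Where peaks were shared their summits lay close together, at a median distance of 32 bp, and 93.6% of 5828 pairs were within 200 bp. Their order of strength was only loosely alike: the Spearman correlation of ranks was 0.32 across the 5828 pairs, which share a genome and an input-based peak caller and are not independent, and 30 pairs were among the 100 strongest in both.

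Lists of the same line gave a yardstick, added after the values were seen. Between MOLM1 and 4 MUTZ3 lists with at least 15000 peaks, 34.9% to 46.8% of the strongest 15000 were shared, in either direction. Between pairs of those MUTZ3 lists, 47.9% to 69.2% were shared. The 2 inducible untreated libraries, made alike, shared 67.6% and 69.2%, and the unmodified and the second 4xPLASS list shared 63.4% and 62.1%. The highest value between lines was thus just under the lowest value within MUTZ3, although the libraries differ in depth and crosslink. The retained MOLM1 peaks also spread over the MUTZ3 libraries: 2537 (16.9%) were present in all 5 MUTZ3 lists, and 1445 (9.63%) in 1 of them.

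Shared sites were ordered by the weaker of their ranks in both lines. First in this order was an intron of GAS8, a gene of the ciliary axoneme, at chr16:90098134-90099293, with rank 2 in MOLM1 and rank 1 in MUTZ3 and fold enrichments of 65.8 and 71.0. It was at rank 1 in all 4 other MUTZ3 CTBP2 lists. The strongest MOLM1 peak, at chr6:167806207-167807080 beside TTLL2, had rank 4 in MUTZ3, with fold enrichments of 69.1 and 54.2. An intergenic site whose nearest start is FBRSL1, at chr12:133005578-133007156, had ranks 3 and 5. The DOCK6 intron at chr19:11319260-11322840 had ranks 7 and 16, and the ZBTB46 intron at chr20:62446456-62447831 had ranks 20 and 8.

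Other sites among the 8 strongest shared ones lay in a CCND3 exon at chr6:41903796-41904308, with ranks 11 and 10, near C1orf159 at chr1:1058768-1059878, with ranks 14 and 13, and in the CEBPA region at chr19:33751384-33752272, with ranks 19 and 11. CCND3 encodes a D-type cyclin of the G1 phase and CEBPA the transcription factor of granulocyte differentiation. The CCND3 and CEBPA sites were strong EVI1 sites too, at ranks 2 and 82 of the unmodified MUTZ3 EVI1 list. Of the 4 sites shown with CACCTG copies, the DOCK6 site also had a high EVI1 rank, 212, while the GAS8, TTLL2 and ZBTB46 sites had ranks of 3161, 13335 and 6640.

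CACCTG copies were counted after these sequences had been read. At least 3 copies in the 200 bp around the summit were found in 14 of the 100 strongest MOLM1 peaks (14.0%, 8.53 to 22.1) and in 15 of the 100 strongest MUTZ3 peaks (15.0%, 9.31 to 23.3), all 14 and all 15 of them shared. The share was 1.67% and 2.11% at ranks 101 to 1000 and 0.290% and 0.992% at ranks 5001 to 15000. In windows 2000 bp to each side of the peaks it was 0.460% for MOLM1 and 0.527% for MUTZ3. Of 77 such MOLM1 peaks, 62 were shared and 2 were MOLM1-only. Of 187 such MUTZ3 peaks, 71 were shared and 49 were MUTZ3-only, which is 1.20% of shared and 1.83% of MUTZ3-only windows. Within 5 Mb of a chromosome end lay 40 of the 77 (51.9%), against 11.3% of the other MOLM1 peaks and 7.58% of chromosomes 1 to 22 and X. In MUTZ3, 90 of 187 (48.1%) lay there, against 11.0% of the other peaks. Windows with at least 1 copy were no more frequent at summits than beside them, with 15.5% against 19.6% in MOLM1. The part of the repeats in the height of these peaks was not tested.

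The strongest MOLM1-only site was intergenic at chr2:105258119-105258632, at rank 68 with a fold enrichment of 31.2, and its nearest start was POU3F3, a POU-domain transcription factor gene known from the brain. The next, at rank 111 with a fold enrichment of 41.9, covered the start of TREM1, a receptor that amplifies inflammatory signals in myeloid cells, at chr6:41254280-41254817. The ANKH intron at chr5:14809714-14810253 followed at rank 121 (41.0). A PAG1 site at chr8:82042717-82043006 had rank 194 (27.8) and an APOH intron at chr17:64242563-64242789 rank 204 (38.7). A pair of CPQ sites on chromosome 8 had ranks 210 and 224. For 5 of the 8 strongest MOLM1-only sites none of the 3 EVI1 lists of MUTZ3 had a peak.

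The strongest MUTZ3-only site was the second strongest peak of its list, an intron of FABP6, the ileal bile acid binding protein, at chr5:159624462-159625336, with a fold enrichment of 60.8. It had ranks 37 and 2 in the 4xPLASS lists and 15 and 7 in the inducible untreated lists, and it was among the strongest EVI1 sites of MUTZ3, at ranks 34, 1 and 2 in the 3 EVI1 lists. No peak of the whole MOLM1 list overlapped it. The intergenic site near MRGBP at chr20:61408317-61408998 had rank 14 (31.9) and that near GPR37 at chr7:124423351-124423663 rank 27 (35.3). Sites near FAM171A1 and in a KRT9 exon had ranks 54 and 55, and an intron of AHR, a ligand-activated transcription factor that acts in hematopoietic progenitors, at chr7:16973351-16973939 had rank 109 (14.8). The site near SERPINB8 had rank 106. All 8 strongest MUTZ3-only sites overlapped a peak in each of the 3 EVI1 lists.

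**Figure D1:**
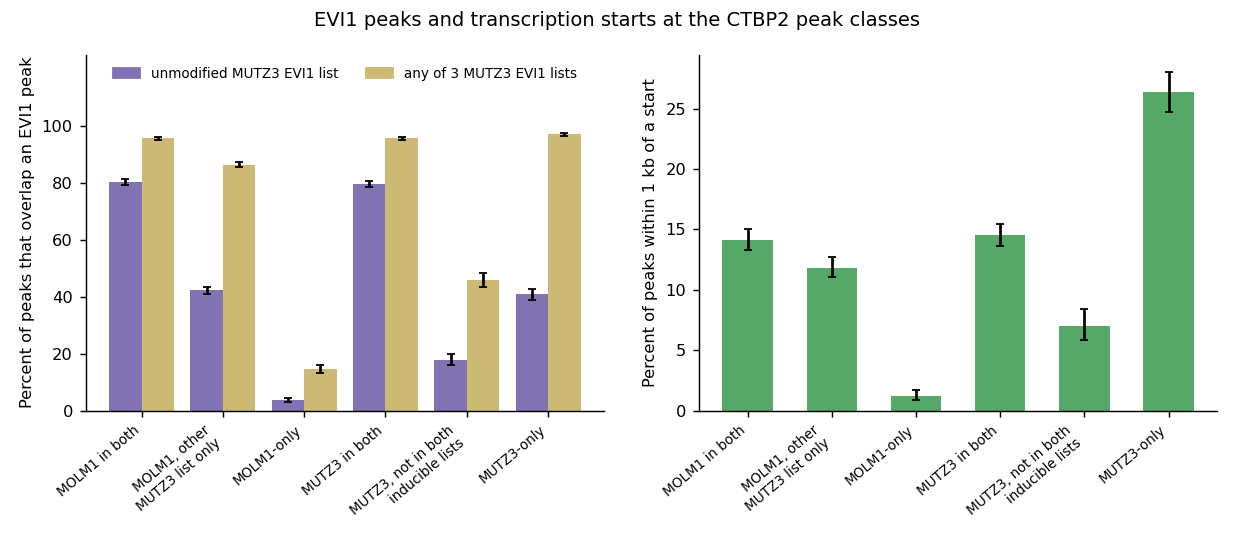
Left, percent of CTBP2 peaks in each class that overlapped an EVI1 peak of unmodified MUTZ3 or of any of 3 MUTZ3 EVI1 lists. Right, percent of peaks with the summit within 1 kb of a protein-coding transcription start. Bars carry 95% Wilson intervals, and MOLM1-only peaks were lowest in both panels, at 3.79% and 14.6% for EVI1 and 1.22% for starts.

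The classes differed in where they lay. Within 1 kb of a protein-coding transcription start (TSS) were 14.2% (13.3 to 15.1) of shared MOLM1 peaks, 11.8% of the MOLM1 peaks found in another MUTZ3 list, and 1.22% (0.883 to 1.69) of MOLM1-only peaks, which is 36 of 2954. Of MUTZ3-only peaks, 26.4% (24.7 to 28.1) were that close. Each gene was given 1 start, at the outermost end of its annotated span, so starts of shorter transcripts were not counted. More than 50 kb from any of these starts lay 52.7% of MOLM1-only, 34.4% of shared MOLM1 and 27.7% of MUTZ3-only peaks. A site had to be absent from 5 lists to be MOLM1-only and present in 2 DSG lists to be MUTZ3-only, and these unequal rules moved the values. Under 1 rule for both lines, no overlap in the whole other list, 40.5% of MOLM1 and 35.7% of MUTZ3 peaks lay over 50 kb from a start, and 8.30% and 19.3% within 1 kb. The 1533 MUTZ3 peaks left out of the MUTZ3-only class had 49.6% over 50 kb and 6.99% within 1 kb. Of all strongest peaks, 10.7% in MOLM1 and 20.4% in MUTZ3 were within 1 kb of a start.

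EVI1 had been profiled in MUTZ3, and an EVI1 list of MOLM1 was not analysed here. The unmodified MUTZ3 EVI1 list had a peak at 80.3% (79.3 to 81.3) of shared MOLM1 peaks and at 79.7% of shared MUTZ3 peaks. It had one at 40.8% (39.0 to 42.7) of MUTZ3-only peaks and at 3.79% (3.16 to 4.54) of MOLM1-only peaks. With the EVI1 lists of the inducible untreated cells added, the shares were 95.7% for shared MOLM1, 97.0% for MUTZ3-only and 14.6% for MOLM1-only peaks. Taken singly, these inducible lists had a peak at 92.4% and 93.1% of MUTZ3-only and at 92.8% and 83.4% of shared MOLM1 peaks, so the lower share of MUTZ3-only peaks in the unmodified list was not seen at that size in either. The MUTZ3-only rule asked for peaks in the CTBP2 lists of the same inducible cells, so its value rests in part on shared cells and crosslink. MOLM1-only peaks had been chosen for absence from MUTZ3 CTBP2 lists and shared peaks for presence, and every EVI1 list is of MUTZ3, so the low share of MOLM1-only peaks follows in large part from the rule and says nothing of EVI1 in MOLM1. The 5877 MOLM1 peaks found in another MUTZ3 list were in between, with 42.3% in the unmodified list and 86.3% in any.

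Motif letters were searched on both strands of the reference in 200 bp around each summit on chromosomes 1 to 22 and X. ETS letters, AGGAAG, were found in 65.8% of shared MOLM1 windows, 58.6% of MOLM1-only windows and 49.4% of MUTZ3-only windows, against 18.9% to 20.4% in windows 2000 bp away. RUNX letters, TGTGGT, were in 31.6%, 31.8% and 15.6%, with 13.3% to 14.7% beside the peaks. The PU.1-type letters GAGGAAGT, which contain the ETS letters, were in 13.2%, 8.61% and 6.02%, with about 1% in each flank (1.01% to 1.05%). Shared and MOLM1-only sites thus held letters of both families above their flanks, and MUTZ3-only sites held RUNX letters little above the flanking share. Among peaks over 1 kb from a start, RUNX letters were in 18.6% (16.9 to 20.4) of MUTZ3-only windows, with 13.7% beside them, and in 34.9% of shared MOLM1 and 32.0% of MOLM1-only windows.

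The AP-1 letters TGANTCA, bound by dimers of FOS and JUN proteins, differed between the line-only classes. They were in 28.9% (27.3 to 30.5) of MOLM1-only windows, 18.5% of MOLM1 windows found in another MUTZ3 list, 12.3% (11.5 to 13.2) of shared MOLM1 windows and 3.59% (2.95 to 4.36) of MUTZ3-only windows. The flanks held 6.68%, 5.81%, 5.93% and 5.72%, so MUTZ3-only summits were below their flanks. Among peaks over 1 kb from a start, a split added after the values were seen, the shares were 28.9% for MOLM1-only, 13.5% for shared and 4.01% for MUTZ3-only peaks. By strength, MOLM1-only windows held the letters in 31.4% of the strongest group of 3000 and 27.9% of the weakest, and shared windows in 14.8% and 9.45%. Among MOLM1-only peaks, 29.7% (28.0 to 31.5) of those without any MUTZ3 EVI1 peak and 23.7% (19.9 to 28.0) of the 430 with one held the letters. Of 20095 promoters of the same length, 3.88% held them.

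CEBP letters, TTGCNNAA, followed the same order at smaller distances, with 16.7% of MOLM1-only, 10.5% of shared and 5.61% of MUTZ3-only windows, and flanks of 10.1%, 9.17% and 8.63%. GATA letters, AGATAA, were in 16.5%, 16.0% and 9.60%, with flanks of 13.3%, 11.0% and 10.9%. This order depended on the class rule, since GATA letters were in 21.4% of the 1533 other MUTZ3 peaks absent from MOLM1 (flank 12.4%) and in 11.0% of the MOLM1 peaks found in another MUTZ3 list. The EVI1 letters GACAAGATA were rare, in 0.24% of shared, 0.068% of MOLM1-only and 0.45% of MUTZ3-only windows. GC-box letters, GGGCGG, were in 3.39% of MOLM1-only, 15.9% of shared and 24.8% of MUTZ3-only windows, beside median GC contents of 47.0%, 52.5% and 56.5% and the differing nearness to starts given above. At least 3 copies of AGGAAG were in 12.2% (11.0 to 13.5) of MUTZ3-only windows, 8.19% of shared MOLM1 windows and 3.73% of MOLM1-only windows, with 0.407% to 0.729% beside them. Among the 1533 MUTZ3 peaks missing from MOLM1 and from 1 or both inducible lists, 19.7% (17.8 to 21.8) held at least 3.

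A gene was called bound in a line where at least 1 strongest peak had its start as the nearest of 20163 protein-coding starts. In both lines 4735 genes (23.5%) were bound, in MOLM1 only 2397 (11.9%), in MUTZ3 only 2368 (11.7%), and in neither 10663 (52.9%). At least 1 shared site was beside 3728 genes (18.5%), so some genes were bound in both lines at different places. A gene bound in MOLM1 only lacked a strongest peak of the unmodified MUTZ3 list, and its peaks need not be MOLM1-only sites. Likewise, a gene bound in MUTZ3 only lacked a strongest MOLM1 peak, and its peaks may overlap peaks of the whole MOLM1 list. Of genes bound in MOLM1 only, 218 (1.08% of all) had no peak in any whole MUTZ3 CTBP2 list, and of those bound in MUTZ3 only, 292 (1.45%) had none in the whole MOLM1 list. Genes with few peaks made up most one-line genes: 3872 MOLM1-bound and 3870 MUTZ3-bound genes had a single strongest peak, while 2168 of the 2540 genes with at least 3 peaks in a line were bound in both.

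The genes with most MOLM1 peaks and no strongest MUTZ3 peak were led by POU3F3 with 9, of which 7 were MOLM1-only sites. PAG1, an adaptor that recruits the kinase CSK, had 8 with 7 MOLM1-only, EXT1, a heparan sulfate polymerase, had 8 with all 8 MOLM1-only, and MREG had 8 with 5. EXT1 and TSPYL5, which had 5 MOLM1-only peaks, had no peak in any of the 5 whole MUTZ3 lists. CLPB had 6 peaks, and HTRA3 and ARC had 5 each. Of these 8 genes, PAG1, EXT1, TSPYL5 and ARC are on chromosome 8, which held 1015 MOLM1 and 680 MUTZ3 peaks. CLPB and HTRA3 peaks were mostly present in other MUTZ3 lists, with 1 and 0 MOLM1-only sites.

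In the other direction, ZNF521, a zinc finger gene of hematopoietic progenitors, had 7 MUTZ3 peaks, 5 of them MUTZ3-only, while the whole MOLM1 list had 1 weaker peak nearest to it. SMIM21 had 8 peaks with 3 MUTZ3-only. ALDH1L1, a folate enzyme gene, had 5 with 4 MUTZ3-only, and IGF2BP2, an mRNA-binding protein gene, had 5 with 3. B3GALT5, PELI2, SNX13 and the gene ENSG00000283321 had 5, 6, 5 and 5, of which only 1, 2, 1 and 0 were MUTZ3-only. The whole MOLM1 list had no peak for IGF2BP2, B3GALT5, SNX13 or ENSG00000283321.

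Among the genes with most peaks over both lines, all those named here but SPACA7 had at least 10 in each. ID2, an inhibitor of basic helix-loop-helix factors and a target of TGF-beta signaling, had 30 MOLM1 and 17 MUTZ3 peaks, with 12 MOLM1 peaks shared and best ranks of 56 and 76. MYC had 21 and 22 with 7 shared, ZMIZ1 14 and 20 with 12, UACA 14 and 16 with 11, and TLE3, a Groucho-type corepressor, 20 and 10 with 6. TMEM121 had 13 and 22. SPACA7 was uneven, with 30 and 2. Of its 30 MOLM1 peaks 28 lacked an unmodified MUTZ3 peak, yet 0 were MOLM1-only.

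Among partners and subunits of the CTBP complex, 15 of 28 genes were bound in both lines (53.6%, beside 23.5% of all genes). They included ZEB2, with 10 MOLM1 and 11 MUTZ3 peaks and best ranks of 113 and 1340, IKZF1 with 8 and 10 peaks, RREB1 with 7 and 10, and ZNF217 with 5 and 10. BCOR, a Polycomb-linked corepressor gene, had 1 MOLM1 and 15 MUTZ3 peaks among the strongest. The whole lists held 31 for it in MOLM1 and 16 in MUTZ3. They are of unequal length, 64569 and 16836 peaks, so these counts cannot be compared directly. Of the 15 MUTZ3 peaks, 6 had no overlap in the whole MOLM1 list. BCOR lies on chromosome X, which held 118 MOLM1 and 245 MUTZ3 peaks. Bound in MOLM1 only were RCOR2 (best rank 2082), EHMT1 (5082) and ZNF516 (7076), with peaks in 3, 3 and 4 of the 5 whole MUTZ3 lists. CTBP2 itself (10339) and CTBP1 (11199) were bound in MUTZ3 only, and both had weaker peaks in the whole MOLM1 list. The spacing of genes was not matched between the lists and all genes, so a share above that of all genes is not read as a result about a list. The counts bound in both lines also rest on the rank and distance limits: with the strongest 5000 peaks, the 15 CTBP complex, 20 TGF-beta, 22 stem cell, 17 neutrophil and monocyte, 12 erythroid and 16 lymphoid genes became 7, 13, 16, 10, 4 and 1, and with summits within 1000 bp of a start 5, 4, 6, 4, 4 and 1.

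Of 28 TGF-beta and SMAD genes, 20 were bound in both lines (71.4%, beside 23.5% of all genes). The receptors TGFBR1, with 8 and 4 peaks and best ranks of 146 and 377, and TGFBR2, with 8 and 8, were among them. So were the signal transducers SMAD2 (4 and 8 peaks) and SMAD3 (10 and 10), the inhibitory SMAD6 (3 and 5) and SMAD7 (10 and 14, 7 shared), and the corepressors SKI (5 and 3) and TGIF1 (11 and 6). ACVR1 was bound in MOLM1 only, and LTBP1, SMAD5 and BMPR2 in MUTZ3 only, with best ranks of 720, 3543 and 14030. All 5 whole MUTZ3 CTBP2 lists held a peak nearest to ACVR1. The MUTZ3 peaks of LTBP1 and SMAD5 each overlapped a peak of the whole MOLM1 list.

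Of 32 stem and progenitor regulators, 22 were bound in both lines (68.8%, beside 23.5% of all genes). Among those with most peaks were CD34 (8 and 7 peaks), FLI1 (7 and 11), ETV6 (5 and 10) and MYB (5 and 9). The list had 92 MOLM1 and 126 MUTZ3 peaks, of which 12 were MOLM1-only and 29 MUTZ3-only. Among those bound in MOLM1 only were SOX4, GATA2, PRDM16 and FLT3, with best ranks of 5030, 6673, 10365 and 10808, and HOXA9 and HLF were bound in MUTZ3 only, with 7308 and 10878. GATA2, SOX4 and FLT3 had no peak in the unmodified MUTZ3 list but had peaks in other MUTZ3 lists. PRDM16 had a peak in all 5 whole MUTZ3 lists, with 1 weaker peak in the unmodified list.

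Of 36 neutrophil and monocyte genes, 17 were bound in both lines (47.2%, beside 23.5% of all genes). Among them were CEBPD, with a best rank of 51 in MOLM1 and 1686 in MUTZ3, KLF4 (274 and 382), CYBB (1430 and 337) and CD14 (5733 and 81). FCN1, TLR4, S100A9, CTSG and LYZ were bound in MOLM1 only, where FCN1, a ficolin of monocytes, had 5 peaks and TLR4, the endotoxin receptor, 4. FCN1 had a peak in all 5 whole MUTZ3 lists, S100A9 and CTSG in 3 of them, and TLR4 and LYZ in 2. CSF2RB, VCAN, GFI1, LGALS3 and FCGR1A were bound in MUTZ3 only, where GFI1, a transcriptional repressor that acts in granulocyte differentiation, had 3 peaks. The whole MOLM1 list held 11 weaker peaks for GFI1. Each MUTZ3 peak of GFI1, LGALS3 and FCGR1A overlapped a peak of that whole list.

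Of 35 erythroid and megakaryocyte genes, 12 were bound in both lines and 19 in neither. These are 34.3% and 54.3% of the list, beside 23.5% and 52.9% of all genes. TFRC, the transferrin receptor, had best ranks of 520 and 190, and THBS1 393 and 3588. ITGB3 and EPB42 were bound in MOLM1 only and PPBP was among those bound in MUTZ3 only, with 1 peak each. The PPBP peak overlapped a peak of the whole MOLM1 list, and ITGB3 and EPB42 had peaks in other MUTZ3 lists. Of 31 lymphoid genes, 16 were bound in both, 5 in MOLM1 only and 2 in MUTZ3 only. That is 51.6%, 16.1% and 6.45% of the list, beside 23.5%, 11.9% and 11.7% of all genes. TBX21, a T-box factor of T and natural killer cells, had the best rank of those bound in MOLM1 only (1103), followed by BLNK (3100), CD22, PAX5 and BCL11B. Each of these 5 had peaks in other MUTZ3 lists, and PAX5 alone had a MOLM1-only site (1 of its 3 peaks). RAG2, of V(D)J recombination, had 3 MUTZ3 peaks with a best rank of 2609.

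GATA2 is the hematopoietic regulator whose distal enhancer is moved to MECOM in inv(3) leukemia. Within 100 kb of the gene MOLM1 had 8 strongest peaks and unmodified MUTZ3 had 0. Where that enhancer lies relative to this window was not examined, so these counts do not describe it. The strongest of the 8 MOLM1 peaks had rank 626, a fold enrichment of 25.6 and a summit at -99.0 kb. It and a second peak at -95.1 kb (rank 5808, 14.0) were MOLM1-only. Both had RPN1 as the nearest start, so the nearest-start rule gave GATA2 itself 0 MOLM1-only sites. The other 6 were present in another MUTZ3 list, at best ranks of 9874 to 48716. Those at -92.25, 39.6 and -30.5 kb met only peaks at ranks 46755, 41544 and 48716 of an inducible untreated list. A summit at 9.87 kb lay in a GATA2 intron (rank 6728, 14.2).

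GFI1B encodes a transcriptional repressor that acts in erythroid and megakaryocytic development. The same element 59.2 kb downstream of its start was strongest in both lines, at chr9:135878125-135880182 in MOLM1. This element had rank 37 and a fold enrichment of 33.1 in MOLM1, and rank 29 and 27.6 in MUTZ3. It was also at rank 6 of the unmodified EVI1 list. In MUTZ3 this region was split into 3 peaks, at ranks 29, 3025 and 13381, all under the single MOLM1 peak. The GFI1B start held a weak shared peak, at ranks 9095 and 9423. In the CEBPA region the shared site 41.7 kb downstream had fold enrichments of 60.04 in MOLM1 and 38.5 in MUTZ3. A peak at the CEBPA start (-0.594 kb) was MUTZ3-only, at rank 11020, and MOLM1 peaks at 15.5, 28.5 and 53.1 kb were found in MUTZ3 lists other than the unmodified one.

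MECOM, the EVI1 gene, held 1 shared site in an exon, at rank 2536 in MOLM1 and 4458 in MUTZ3, and 2 further MOLM1 peaks. The shared site lay 516 kb from the most distal start of MECOM. Its distance from the start of the short EVI1 transcript was not measured. SPI1, the gene of PU.1, had 3 and 4 peaks within 100 kb, with shared sites beside MADD (ranks 3533 and 7260) and SLC39A13 (7070 and 2693). A MOLM1-only peak (rank 5065) lay inside SPI1, in an intron at 18.7 kb from its start. RUNX1 had 19 and 21 peaks, 10 and 12 of them shared, with the strongest in an intron at rank 36 in MOLM1 and 73 in MUTZ3, with fold enrichments of 43.7 and 24.3. In the lists above, SPI1 and RUNX1 were nonetheless counted as bound in neither line. Measured to the 1 start given to each gene, the peaks in and around these genes lay nearer to other genes, such as MYBPC3 and CLIC6. The RUNX1 start used was its outermost, and starts of shorter RUNX1 transcripts were not counted. Distances of these peaks from such starts were not measured, so being counted as unbound does not describe them.

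Peaks were not spread evenly over chromosomes in the pair. The ratio of MOLM1 to MUTZ3 peaks was 1.49 on chromosome 8, 1.41 on 13 and 1.22 on 3, and 0.482 on X, 0.704 on 16, 0.706 on 14 and 0.725 on 18. MOLM1-only sites were 29.7% of MOLM1 peaks on chromosome 13, 28.1% on 8 and 25.5% on 4, and 8.94% on 16 and 7.99% on 19. This share did not simply track the ratio, which was 0.903 on 4 and 0.926 on 19, and X, with the lowest ratio, had 16.1%. Copy number was not analysed here, and its part in these counts, and in the genes named from those chromosomes, was not tested.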

How the data were processed

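The authors sequenced CTBP2 immunoprecipitates and inputs, aligned reads to hg19 with Bowtie 1.1.1 and called peaks with MACS2 2.1.2, per the labels and the study's methods, in each library against its input. The deposited fold enrichment is a ratio of signal at the summit to local background. The deposited summit significance is given as −log10 p, and again as −log10 q after MACS2's adjustment. No read counts are in the lists, so depth is unknown. Fold and p-value scales were read only within a list.

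Peaks were ranked by −log10 p and overlapped at 1 bp or more (Python 3.11.15, pandas 2.3.3, pysam 0.24.0). Overlaps were tested on simulated lists and checked against bedtools 2.31.1. Summits were assigned to the nearest of 20163 protein-coding starts of GENCODE release 44 on GRCh37. Each gene had 1 start, the outermost of its annotated span. Intervals are Wilson intervals at the 95% level. Named sites were the 8 strongest of each class. Named genes were the 8 with most one-line peaks for each line, the 8 with most over both, and members of 6 lists, those bound in one line by best rank. List members beyond 4 bound in both lines, BCOR among them, were named after their values were seen. The members, lists and loci were chosen with earlier results of these data known. Alternatives were other ranks, overlap rules, windows and MUTZ3 lists. Values of a few named genes and 1 sequence window are not reported here.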

Additional observations from a re-analysis of the deposited data

How the results depend on the processing

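The shares below are of the strongest peaks, in the order MOLM1 shared, MUTZ3 shared, MOLM1-only and MUTZ3-only (38.9%, 39.5%, 19.7% and 17.9% as reported), and the genes are those bound in both lines, in MOLM1 only and in MUTZ3 only (4735, 2397 and 2368). Shares were counted as moved when they left the Wilson interval and gene counts when they changed by over 1.5 times. Ranking by fold enrichment gave 36.5%, 37.1% and 21.8% for the first 3. With the strongest 5000 peaks the shares were 35.0%, 35.1%, 10.9% and 12.2% and the genes 1798, 1524 and 1462, and with 10000 the shares were 37.7%, 37.95%, 16.0% and 14.9%. With whole lists of unequal length they were 18.7%, 70.2%, 36.9% and 18.8%, with 7262, 7585 and 347 genes. Asking that the overlap cover 50% of the shorter peak moved MUTZ3-only sites to 19.1%, and summits within 200 bp gave 36.6%, 36.7%, 21.9% and 12.7%. With inducible untreated replicate 1 as the MUTZ3 list, the shared shares were 37.3% and 34.9%, MUTZ3-only sites 20.4% and genes bound in MUTZ3 only 4154. Replicate 2 gave shared shares of 45.6% and 43.8%, and 4xPLASS replicate 2 gave 46.7% and 46.8% with 13.8% MUTZ3-only. Peaks within 1000 bp of a start gave 833 genes bound in both, 703 in MOLM1 only and 1826 in MUTZ3 only, so the near-equal counts of one-line genes became unequal. Lymphoid genes bound in both fell from 16 to 10 with summits within 50 kb of a start, and the list counts given in the report moved with the strongest 5000 peaks or the 1000 bp limit. Leaving out 1 of the other MUTZ3 lists at a time gave 19.7% to 24.7% MOLM1-only and 19.4% to 22.01% MUTZ3-only sites. With each inducible EVI1 list in turn, EVI1 peaks were at 92.8% and 83.4% of shared MOLM1, 6.03% and 8.73% of MOLM1-only and 92.4% and 93.1% of MUTZ3-only sites, against 80.3%, 3.79% and 40.8%. AP-1 letters in 100 bp windows were in 7.08%, 17.7% and 1.35% of shared MOLM1, MOLM1-only and MUTZ3-only windows, and in 13.5% of shared MOLM1 windows over 1 kb from a start. For shares these moves have no replicate error to be set against, and the cause was not tested beyond fewer peaks, windows or lists. In each of these AP-1 settings MOLM1-only sites stayed above shared MOLM1 sites, while the order for EVI1 follows from how the classes were chosen. No paired analysis was possible because each line has 1 CTBP2 library in this comparison, so there are no pairs of replicates, and no result comes from a test. The lists limit what can be said: the depth is unknown, and a peak missing from a list may be present below its threshold.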
